A study of Mus musculus with 24 samples.

Results

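γδ T cells of the inguinal lymph node that carried the GFP reporter of PLZF (PLZF+) were compared with those that did not (PLZF-), gene by gene. The comparison used the 3 PLZF+ and the 3 PLZF- libraries labelled as lymph node, 6 of the 24 libraries of the series, and all genes of the expression table apart from merged entries. Cells had been sorted from untreated male C57Bl/6 mice aged 16 to 22 weeks that all carried the PLZF-GFP reporter, and libraries were made by Smart-seq2, a full-length cDNA method for small cell inputs. The other 18 libraries are the same subsets from spleen, lung and epididymal adipose tissue, and they entered the fit to estimate the spread of each gene. The series text gives 2 replicates of 10 pooled mice per subset, but the labels give 3 libraries per group and do not say which of them share animals. All p-values thus reflect the variation from library to library, which may be technical. The gene for PLZF itself was not analysed here, so the sort rests on the labels.

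PLZF is a zinc finger transcription factor that gives NKT cells and some γδ T cells an innate-like, rapidly responding programme. Mouse γδ T cells without it include resting cells that recirculate through lymphoid organs, whereas PLZF+ γδ T cells are known in adipose tissue as producers of IL-17A. SLAM-family receptors and their adaptor SAP are needed for the thymic development of PLZF+ lymphocytes such as NKT cells.

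Genes in the table had passed the authors' own test of tissue (7926 of 42591). Of these, 5007 reached a deposited log2 value of 1 in 3 or more libraries and were tested. That value holds a term of its gene, so this is not a filter on read number. Over all genes of the table apart from merged entries, lymph node libraries held 286918, 309363 and 402977 recovered reads (PLZF-) and 527542, 316000 and 455109 (PLZF+). In a library, 52.9% to 61.9% of these genes had 0 reads. Values below are normalized reads, that is whole reads divided by the relative depth of the library, and 1 read was worth 0.51 to 0.944 of them. CD3 genes, which mark T cells, were read in all 6 libraries, for example Cd3e at 690, 902 and 863 (PLZF-) and 914, 1105 and 1160 (PLZF+).

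Libraries numbered 1 stood apart in both groups. Markers of myeloid and dendritic cells (26 of 37 listed genes in the table) accounted for 2.73%, 0.0275% and 0.0109% of PLZF- libraries 1 to 3 and for 0.474%, 0.037% and 0.0435% of PLZF+ libraries. Lyz2, the lysozyme of macrophages, was at 5049 and 656 normalized reads in the libraries numbered 1 and at 8.46 to 46.7 in the other 4. Class II genes that B cells and dendritic cells share followed the same numbers, with H2-Aa at 1546 and 1390 against 5.64 to 29.6, while of the B and plasma cell list (14 of 22 listed genes in the table) Cd79a and Igkc were between 0 and 9.44 in all 6. Other genes of that list were read more, with Cd79b at 65.6 to 120 in PLZF- and 119 to 211 in PLZF+ libraries. The heavy chain genes Ighm (546 to 777 against 54.8 to 161) and Ighd (14 to 40.6 against 1.87 to 7.14) were lower in PLZF+ libraries without overlap. αβ T cell genes (48 genes) made up 1.12%, 0.851% and 0.849% of PLZF- libraries against 0.678%, 0.573% and 0.583% of PLZF+ libraries, so the groups did not overlap. This share is mostly Trbc1 and Trbc2, the beta constant regions, and is not a measure of αβ T cell content. Trac, the alpha constant region, overlapped (63.2 to 315 against 80.6 to 212 normalized reads). Endothelial (12 genes), stromal, adipocyte and epithelial (20) and erythroid and platelet markers (4) stayed at or under 0.0226% in every library, and none of the listed NK markers is in the table. In bulk libraries, fewer cells of a type and less RNA per cell cannot be told apart. The part of these other cells in the differences below was not tested beyond leaving out both libraries numbered 1.

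**Figure D1:**
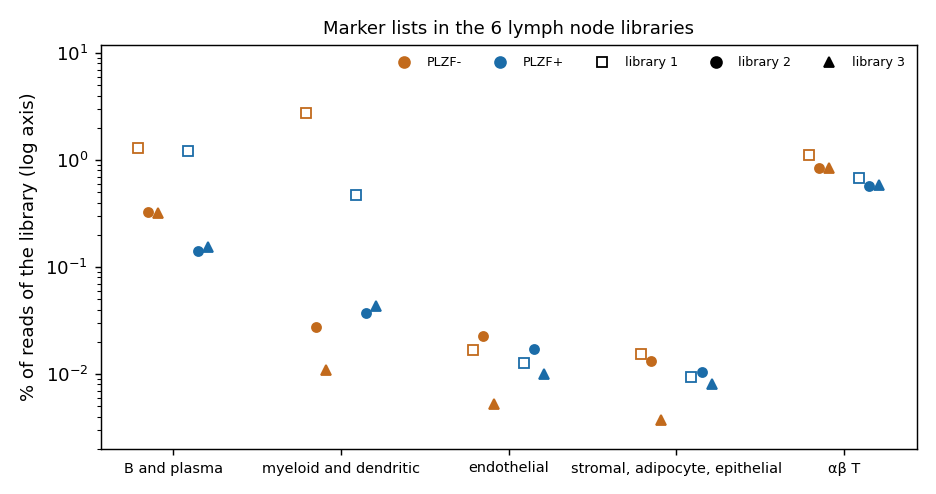
Share of the reads of each lymph node library taken by 5 marker lists, in percent on a log axis, with PLZF- libraries in orange and PLZF+ libraries in blue. Open squares are the libraries numbered 1, which hold 1.30% and 1.22% B and plasma cell markers against 0.141% to 0.326% in the other 4. The summed share of αβ T cell genes, mostly Trbc1 and Trbc2, is lower in all 3 PLZF+ libraries.

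PLZF+ cells of the lymph node held less of the SLAM-family receptor Slamf6, the resting-lymphocyte gene Dapl1, the T cell receptor signalling gene Themis, the co-receptor chain Cd8b1 and the ADP-ribosyltransferase Art2b than PLZF- cells. They held more Ahnak, Tmem30a and Fgl2, and more of the 2 low-read genes Ablim3 and Prickle1. By limma with Benjamini-Hochberg adjustment, 5 of 5007 tested genes rose (0.0999%) and 10 fell (0.2%), 15 in all (0.3%), while 288 genes had an unadjusted p under 0.05. For each of the 15, all 3 libraries of one group lay above all 3 of the other in normalized reads. Such separation was not rare, as 6.39% of tested genes were higher and 5.97% lower in all 3 PLZF+ libraries. The median log2 difference over tested genes was -0.22, and it was 0.02 over the 2273 genes with a mean of at least 10 reads in the lymph node libraries, called well-read below. Genes with few reads lean below 0 on this scale, because the value of 0 reads falls with depth and PLZF+ libraries were on average deeper.

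Equal replicate numbers went together across the 2 subsets, most clearly for the libraries numbered 1. With the number as a block within tissue, 47 genes passed (0.939%), 13 higher (0.26%) and 34 lower (0.679%), and all 15 genes above were among them. With both libraries numbered 1 left out, 7 of the 15 still passed, namely BE692007, Slamf6, Acp5, Themis, Cd8b1, Art2b and Gas7. Signs could not change in that fit, because the groups did not overlap in any of the 15. A block on lymph node libraries alone called 14 genes (0.28%), of which 8 were among the 15. Acp5, Themis, Prickle1, Art2b, Tmem30a, Cd14 and Gas7 did not pass with that block (adjusted p 0.0862 to 0.12). Among well-read genes 11 rose (0.484%) and 18 fell (0.792%), and voom, which weights values by read number, called 29 of all tested genes (0.579%) and 46 of the well-read ones (2.02%), of which 30 fell (1.32%).

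**Figure D2:**
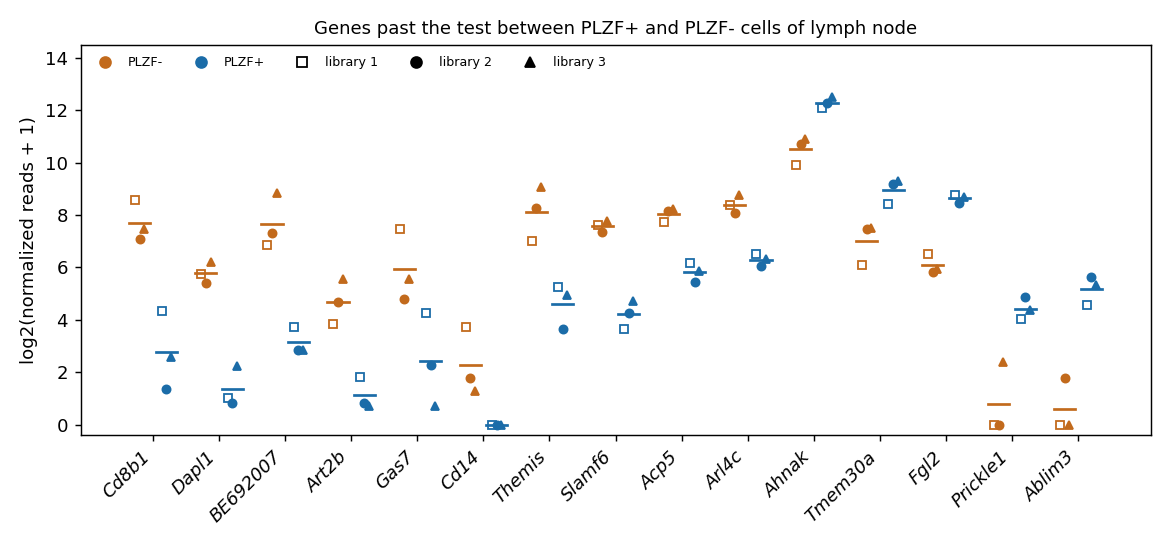
Normalized reads of the 15 genes past the test in each of the 6 lymph node libraries, as log2 of normalized reads plus 1, with bars at the mean of 3 libraries on that scale. Orange and blue points do not overlap in any of the 15 genes, and Cd14 is at 0 in all 3 PLZF+ libraries.

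The promoters of Slamf6, Dapl1 and Themis, which fell, and of Ahnak, which rose, are shown because the account below turns on these genes. Each is the 250 bases before the gene start in RefSeq (GRCm38.p6), 5′ to 3′ on the gene's own strand, and capitals mark a KLF motif (CACCC or its complement GGGTG).
Slamf6 (chr1:171917212-171917461, + strand): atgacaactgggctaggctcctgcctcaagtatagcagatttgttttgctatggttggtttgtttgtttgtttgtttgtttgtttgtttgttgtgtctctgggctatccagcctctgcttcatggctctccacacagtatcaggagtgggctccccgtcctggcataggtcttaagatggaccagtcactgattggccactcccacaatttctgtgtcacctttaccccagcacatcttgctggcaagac
Dapl1 (chr2:59484403-59484652, + strand): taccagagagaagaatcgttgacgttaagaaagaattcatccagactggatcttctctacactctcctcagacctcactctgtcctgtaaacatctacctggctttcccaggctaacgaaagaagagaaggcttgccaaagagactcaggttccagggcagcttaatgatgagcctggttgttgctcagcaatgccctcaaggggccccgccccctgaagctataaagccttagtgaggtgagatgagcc
Themis (chr10:28668110-28668359, + strand): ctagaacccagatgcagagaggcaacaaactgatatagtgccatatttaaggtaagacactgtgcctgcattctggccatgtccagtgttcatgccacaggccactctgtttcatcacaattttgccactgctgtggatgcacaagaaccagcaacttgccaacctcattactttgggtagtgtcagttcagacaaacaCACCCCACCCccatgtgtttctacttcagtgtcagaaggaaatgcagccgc
Ahnak (chr19:8989034-8989283, + strand): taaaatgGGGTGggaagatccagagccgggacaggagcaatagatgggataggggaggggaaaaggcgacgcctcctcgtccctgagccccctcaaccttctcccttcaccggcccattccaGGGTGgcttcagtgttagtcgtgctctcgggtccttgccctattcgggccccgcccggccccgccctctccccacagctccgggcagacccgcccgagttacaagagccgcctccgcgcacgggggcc
Of the 15 genes, 11 were matched to such a sequence and searched on both strands. The KLF motif was in 6 of the 11, and in 52.0% of 32851 mouse promoters. A TCF/LEF motif (CTTTGA) was in 1 of 11 against 13.8%, a RUNX motif (TGTGGT) in 2 against 14%, and a ROR motif (AGGTCA) in 0 against 14%. The Slamf6 and Dapl1 windows held none of the 4, and the 2 matches of Themis lie end to end.

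Slamf6 encodes Ly108, a receptor that binds itself on neighbouring cells and signals through SAP. It lies on chromosome 1 (171917515 to 171953170, mm10). Its level was 194, 164 and 216 normalized reads in PLZF- libraries 1 to 3 against 11.7, 18 and 25.5 in PLZF+ libraries, and values of other genes are given in the same order. The highest PLZF+ library thus stood far under the lowest PLZF- library, and the means were 191 ± 25.9 and 18.4 ± 6.91 (SD, n = 3 each), a 10.4-fold difference. On the deposited log2 scale it fell by 3.41 ± 0.37 (SE, adjusted p = 2.1e-05), and it passed with any 1 lymph node library left out. Sh2d1a, which encodes SAP, was at 251, 56.7 and 107 against 26, 11 and 13.1, also without overlap, and did not pass (-2.87 ± 0.76, adjusted p = 0.149). Of 6 tested members of the SLAM family and its adaptors, 1 fell and 5 did not pass, with Ly9 at -0.59 and Cd48 at 0.24.

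Dapl1, a small-protein gene expressed in resting T cells, is on chromosome 2 (59484653 to 59505020). It had 52.9, 41.1 and 73.4 normalized reads in PLZF- libraries against 1.02, 0.783 and 3.73 in PLZF+ libraries, which is 1 to 6 whole reads in the latter. It fell by 4.91 ± 0.78 (adjusted p = 0.00489). Among 6 tested genes of naive cells and lymphoid homing, of 21 listed, it was the 1 that passed, and the median of the 6 was -2.33. Ccr9, the receptor for CCL25, was at 68.9, 284 and 401 against 29.6, 11 and 23.0 (adjusted p = 0.078, and 0.017 with the block). Nsg2, a vesicle protein known mainly from neurons, was at 67.1, 100 and 123 against 13.8, 4.70 and 8.71 (adjusted p = 0.105, and 0.0419 with the block). Tcf7, the transcription factor TCF-1, was at 320, 665 and 786 against 202, 197 and 260, and Foxp1, a factor of quiescent T cells, at 355, 444 and 585 against 186, 182 and 296. Neither passed in either fit, although 5 of the 6 genes were lower in all 3 PLZF+ libraries, against 11.8% of well-read genes. Cd7 was the sixth and overlapped. Gene lists were chosen with earlier results of these data known, so such counts, here and below, describe the members and test nothing.

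Themis, a regulator of T cell receptor signalling first known from thymocytes, is on chromosome 10 (28668360 to 28883818). Its values were 128, 309 and 542 normalized reads against 37.2, 11.7 and 29.9. PLZF- libraries spread widely without reaching the PLZF+ ones, and it fell by 3.54 ± 0.63 (adjusted p = 0.0123). Of 14 tested T cell receptor signalling genes, 1 fell and 13 did not pass, with a median of -0.53, and 6 of the 14, all well-read, were lower without overlap, against 11.8% of all well-read genes. Dgka, a diacylglycerol kinase that dampens signalling, was at 290, 708 and 1084 against 157, 144 and 189 (-1.90 ± 0.42, adjusted p = 0.058). Cd5, an inhibitory receptor, was at 100, 142 and 159 against 37.2, 23.5 and 57.9 (adjusted p = 0.683). Lat, Plcg1 and Nfatc3, which carry the signal onward, had differences of 0.21, 0.49 and 0.40 and overlapped. Of 10 tested genes of CD3 and the γδ receptor itself 0 passed (0 with the block), and their signs were mixed, with Cd3g at 0.55, Cd3d at -0.39, Tcrg-C2 at 0.59 and Tcrg-C4 at -0.16.

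Cd8b1, the beta chain of the CD8 co-receptor, is on chromosome 6 (71322788 to 71337494). It was at 384, 134 and 177 normalized reads against 19.4, 1.57 and 4.98, and library 1 was the highest in both groups. It fell by 5.15 ± 0.92 (adjusted p = 0.0124). Of 24 tested αβ T cell genes it was the 1 that passed. The summed share of αβ T cell genes was lower in PLZF+ libraries (0.573% to 0.678% against 0.849% to 1.12%). That sum includes Cd8b1 itself and is mostly Trbc1 and Trbc2, so it is not a separate result. The part of αβ T cells in the Cd8b1 difference was not tested. Trbc1 and Trbc2, the constant regions of the T cell receptor beta chain, were at 823 to 1023 against 559 to 617 and at 941 to 1095 against 679 to 804, and did not pass, while Trac, the alpha constant region, overlapped (0.01 ± 0.77).

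Art2b, on chromosome 7 (101576970 to 101585600), encodes a surface enzyme that uses extracellular NAD to modify and open P2RX7, the ATP-gated channel encoded by P2rx7. Art2b was at 13.2, 24.6 and 45.8 normalized reads against 2.55, 0.783 and 0.622, and it fell by 4.11 ± 0.81 (adjusted p = 0.0276). A close relative lies beside it in the genome, so reads of the pair may have been split in counting, which was not tested. P2rx7 was at 10.4, 22.2 and 43.7 against 10.2, 4.70 and 1.87. The groups touched only at their libraries numbered 1, and it did not pass (-2.18 ± 0.52, adjusted p = 0.0803). Of 10 tested genes for sensing ATP and NAD, 1 fell, and the ATP channel P2rx4 was at 45.3, 50.1 and 55.0 against 42.3, 29.0 and 29.9.

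BE692007 had the largest test statistic beside Slamf6. GENCODE lists it as a processed transcript without a coding sequence on chromosome 19 (11470166 to 11484578, minus strand), where it overlaps Ms4a6c on the other strand. The library type does not keep strand, so reads from a stretch that both genes share cannot be told apart by strand. The spans of Slamf6, Acp5, Gas7, Themis and Fgl2 are also overlapped by other annotated genes on the other strand. Whole spans were compared and exons were not, so how many reads this concerns was not tested. In BE692007 the PLZF- libraries had 116, 157 and 461 normalized reads against 12.2, 6.26 and 6.22 in the PLZF+ ones, and it fell by 4.64 ± 0.49 (adjusted p = 2.1e-05). Ms4a6b, a neighbour that encodes a four-span membrane protein of T cells and has close relatives in the same cluster, was at 900, 810 and 1346 against 259, 180 and 325 (-2.01 ± 0.44, adjusted p = 0.0534, and 0.0121 with the block).

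Acp5, a tartrate-resistant acid phosphatase (chromosome 9, 22126727 to 22135711), was at 213, 282 and 303 normalized reads against 71.9, 43.1 and 57.3 and fell by 2.22 ± 0.34 (adjusted p = 0.00331). Arl4c, a small GTPase (chromosome 1, 88673125 to 88702221), was at 329, 266 and 437 against 90.8, 65.8 and 78.4 and fell by 2.11 ± 0.43 (adjusted p = 0.0288). Gas7, which binds actin (chromosome 11, 67455437 to 67688990), was at 175, 27.1 and 46.6 against 18.4, 3.91 and 0.622 and fell by 3.85 ± 0.81 (adjusted p = 0.0397). In each of these 3 genes the groups stayed apart, for Gas7 with the highest value of each group in library 1. Cd14, the lipopolysaccharide co-receptor of myeloid cells (chromosome 18, 36725067 to 36726798), had 13, 3 and 2 whole reads against 0, 0 and 0. Against a floor of 3 reads per library the PLZF- mean was 2.81-fold higher. That fold rests on PLZF- library 1, as libraries 2 and 3 had 3 and 2 reads, at or under the floor. The fitted -3.67 ± 0.76 (adjusted p = 0.035) depends on the 0.5 reads added before the log. Cd14 is also 1 of the 26 myeloid markers, of which it was the 1 that passed, and without the libraries numbered 1 its adjusted p was 0.431.

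Ahnak, a very large scaffold protein that supports calcium entry in T cells, is on chromosome 19 (8989284 to 9076914). It rose from 973, 1694 and 1903 to 4329, 4989 and 5772 normalized reads, with a log2 difference of 1.77 ± 0.31 (adjusted p = 0.0123). Tmem30a, the shared subunit of flippases that keep phosphatidylserine on the inner membrane leaflet, is on chromosome 9 (79768943 to 79793507). It rose from 68.0, 177 and 178 to 345, 579 and 631 (1.96 ± 0.39, adjusted p = 0.0276). In both genes library 1 was the lowest of its group in PLZF- and in PLZF+ cells, and the groups did not overlap. Fgl2, a secreted fibrinogen-like protein that regulatory T cells also make, is on chromosome 5 (21372642 to 21378374) inside the span of Ccdc146, which runs on the other strand. It rose from 89.7, 55.8 and 60.7 to 438, 348 and 412, a 5.81-fold difference in means (2.56 ± 0.51, adjusted p = 0.0279).

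Ablim3, an actin-binding LIM protein (chromosome 18, 61799392 to 61911824), had 0, 3 and 0 whole reads against 45, 62 and 63 (5.51 ± 1.09, adjusted p = 0.0276). Prickle1, which takes part in planar cell polarity (chromosome 15, 93499114 to 93595891), had 0, 0 and 6 against 30, 36 and 32 whole reads (4.43 ± 0.86, adjusted p = 0.027). Both were nearly unread in PLZF- cells, so these log2 differences also depend on the 0.5 reads added. Ablim3 did not pass by voom (adjusted p = 0.118), whereas Prickle1 did (0.0146).

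Of the 15 calls, 13 were lost in at least 1 fit that left out a library. Only BE692007 and Slamf6 passed in each of the 6 fits that left out 1 lymph node library. Without PLZF+ library 2 they were the 2 genes that passed, and without PLZF+ library 3 they passed together with Acp5 and Dapl1 (4 genes). Without PLZF- library 1, 2 or 3 the counts were 9, 9 and 10, and without PLZF+ library 1 the count was 22. Fgl2 passed in 0 of these 6 fits (adjusted p 0.0553 to 0.158), and Arl4c and Cd14 each in 1. The highest adjusted p in these fits was 0.0573 for Acp5, 0.0637 for Dapl1, 0.116 for Ahnak, 0.158 for Themis and Cd8b1, 0.174 for Prickle1 and Art2b, 0.179 for Tmem30a, Ablim3 and Cd14, 0.195 for Arl4c and 0.264 for Gas7. With only the 6 lymph node libraries in the fit 0 genes passed by limma, and 451 had an unadjusted p under 0.05.

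**Figure D3:**
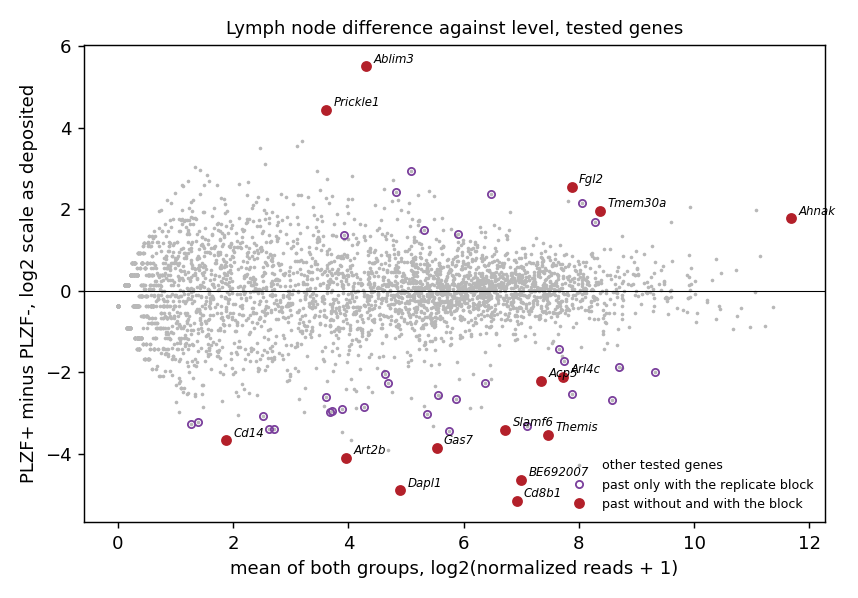
Difference between PLZF+ and PLZF- cells of lymph node on the deposited log2 scale (vertical axis) against the mean level of both groups (horizontal axis, log2 of normalized reads plus 1) for the 5007 tested genes. Red points are the 15 genes past the test, purple circles the other 32 that pass with the replicate block, and low-read genes scatter most.

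Genes that passed only with the replicate block fell into several functions. Higher were Slc16a3, the lactate exporter MCT4 (12.3, 2.46 and 11.3 against 65.3, 49.3 and 57.3 normalized reads, adjusted p = 0.0285 with the block and 0.0607 without), and Itgb1, the integrin beta 1 chain (109, 106 and 74.8 against 311, 461 and 534, 0.039 and 0.0607). Gcnt2, a glycan-branching enzyme (12.3, 9.85 and 4.23 against 38.2, 53.2 and 45.4), Clic4, a chloride channel family protein (19.8, 36.9 and 29.6 against 175, 139 and 129), and Sema4b, a semaphorin (81.2, 223 and 159 against 360, 470 and 563), were higher as well. Lower was Itga4, the alpha 4 chain that pairs with beta 1 or beta 7 in integrins for homing (295, 312 and 547 against 160, 20.4 and 75.9, 0.0179 and 0.0607). The 2 chains thus moved in opposite directions under the block, and neither overlapped between groups.

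Cd160, a receptor for HVEM, was at 204, 103 and 100 normalized reads against 42.3, 16.4 and 26.8 (adjusted p = 0.0486 with the block and 0.23 without). Egr2, an immediate early factor that NKT cell development needs, was at 33.1, 13.1 and 16.9 against 5.10, 1.57 and 1.25 (0.0285 and 0.11). Ier3, another immediate early gene, was at 42.5, 9.85 and 13.4 against 4.08, 1.57 and 1.25 (0.0121 and 0.23). In these 3 genes the PLZF- group was highest in library 1, the library with the most myeloid RNA, and the groups still did not overlap. Smc4, a condensin subunit (497, 500 and 973 against 164, 132 and 223), Rbm38, an RNA-binding protein (298, 304 and 370 against 57.1, 123 and 131), and Adgre5, which encodes CD97 (432, 224 and 226 against 115, 75.9 and 126), were lower too. Ighm, the immunoglobulin mu heavy chain and 1 of the 14 B and plasma cell markers, of which it was the 1 that passed with the block, was at 546, 622 and 777 against 161, 54.8 and 111 (0.0486 and 0.1). Of the 47 genes, 45 had no overlap, and Lilr4b and Pld4 were the exceptions. By voom 21 of the 47 passed, while Egr2 (adjusted p = 0.73) and Ier3 (0.882) were among those that did not. Without both libraries numbered 1, 11 of the 47 passed. Lilr4b and Pld4 kept their sign, which in the other 45 could not change.

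**Figure D4:**
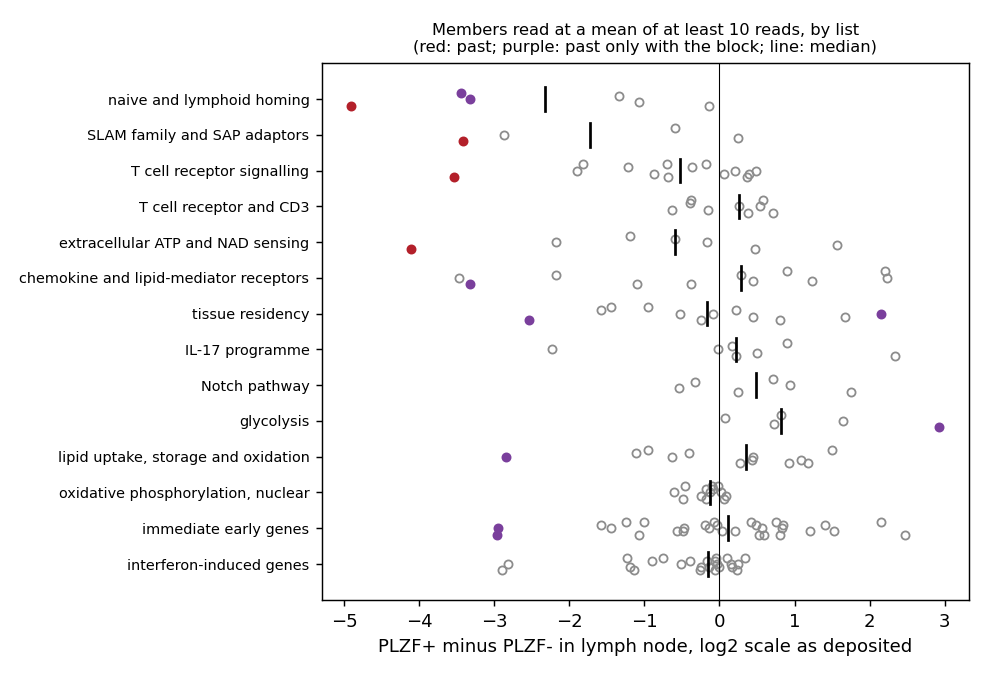
Difference between PLZF+ and PLZF- cells of lymph node on the deposited log2 scale for well-read members of 14 gene lists, 1 point per gene, with the list median as a black line. Genes of naive cells and homing have a median of -2.33 and lie at or under -0.14, whereas nuclear oxidative phosphorylation genes lie between -0.61 and 0.08.

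Genes of the IL-17 programme showed no call among 7 tested members, either without or with the block. The list holds 27 genes, and the others were absent from the table and could not be tested. The table also held 6 of 21 listed genes of naive cells and homing and 6 of 24 of glycolysis. For IFN-γ and cytotoxic genes it held 2 of 27, and for the cell cycle 4 of 40. Il17a, the cytokine itself, was at 0, 14 and 0.705 normalized reads against 4.59, 11.7 and 15.6, and Il17f at 4.72, 32.0 and 13.4 against 0, 9.39 and 8.71. Both overlapped and were thinly read, with log2 differences of 2.34 ± 1.10 and -2.23 ± 1.28 (adjusted p = 0.837 and 0.95). Ccr6, the receptor for CCL20, was at 282, 577 and 343 against 636, 675 and 842, without overlap and without passing (0.90 ± 0.62, adjusted p = 0.95).

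Among 12 tested receptors for chemokines and lipid mediators 0 passed, and 1 fell with the block (Ccr9). Ptgdr2, a receptor for prostaglandin D2, was at 73.7, 112 and 56.4 normalized reads against 292, 373 and 426, and its difference of 2.20 ± 0.70 had an adjusted p of 0.332, whereas voom gave 0.0013. Cxcr5, the receptor for CXCL13 of follicles, was at 23.6, 14 and 38.1 against 5.10, 1.57 and 0.622 (adjusted p = 0.246). Tbxa2r, the thromboxane receptor, was at 145, 103 and 186 against 27.5, 26.6 and 40.5 (adjusted p = 0.787). Itgae, the alpha chain CD103 of the list for tissue residency, was at 149, 571 and 502 against 900, 1231 and 1265 (1.68 ± 0.73, adjusted p = 0.787). In all 4 the groups did not overlap, which held for 12.1% of well-read genes in the higher and 11.8% in the lower direction. Of 13 tested residency genes 0 passed, and the block called the 2 integrin chains above.

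In the Notch pathway 0 of 11 tested genes passed, also with the block, and 3 of 6 well-read members were higher in every PLZF+ library, against 12.1% of all well-read genes. Jag1, a ligand, was at 18.9, 10.7 and 16.2 normalized reads against 41.8, 51.7 and 61.0 (1.75 ± 0.60, adjusted p = 0.462). Notch2, a receptor, was at 239, 170 and 205 against 313, 430 and 434 (0.93 ± 0.35, adjusted p = 0.575), and Rbpj, the nuclear partner of the cleaved receptor, at 37.8, 32.0 and 51.5 against 98.9, 54.0 and 52.3 (0.71 ± 0.44, adjusted p = 0.95). Lfng and Mfng, which add sugars to Notch, and the target Dtx1 overlapped.

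The study's title concerns metabolic programmes. Of 6 tested glycolysis genes 0 passed without the block and Slc16a3 rose with it, while Hif1a, a factor that drives glycolysis, had a difference of 0.81 ± 0.41 (adjusted p = 0.907) and Hk2, a hexokinase, of 0.07. Nuclear genes of oxidative phosphorylation gave 0 calls of 16, with a median of -0.15. Of 21 tested genes for lipid uptake, storage and oxidation 0 passed. G0s2, an inhibitor of triglyceride breakdown, was at 54.8, 14.8 and 28.2 normalized reads against 2.04, 3.91 and 6.22 and passed with the block only (-2.85 ± 1.16, adjusted p = 0.688, and 0.0423 with the block). Dgat1, which completes triglyceride synthesis, was at 13.2, 28.7 and 26.1 against 57.1, 37.6 and 56.0, and Cpt1a, the gate for fatty acids into mitochondria, at 63.3, 61.6 and 57.1 against 82.6, 65.0 and 102. Neither passed, and both were higher in each PLZF+ library. Of 12 well-read members of this list, 4 were higher and 2 lower without overlap, against 12.1% and 11.8% of all well-read genes.

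Immediate early genes, which also respond to handling of cells, had 0 calls of 37 tested (Egr2 and Ier3 with the block) and a median of 0.04, with Fos at 28.3, 0 and 16.9 normalized reads against 5.10, 0.783 and 3.73. Interferon-induced genes had 0 of 25 and a median of -0.16. Slfn1, a schlafen gene with close relatives, was the nearest to passing, at 141, 65.7 and 140 against 43.9, 6.26 and 10.6 (-2.89 ± 0.69, adjusted p = 0.0861). Cytokine receptors (15 tested), costimulatory and inhibitory receptors (7), fatty acid and sterol synthesis (7), innate and type 2 genes (7), cell cycle genes (4) and solute carriers (50) gave 0 calls without the block. With the block, Cd160 and Egr2 fell and Slc16a3 rose among them, as given above, and 0 members passed in the other lists of these. Of the list for IFN-γ and cytotoxic genes, the chemokine genes Ccl3 and Ccl4 were the 2 members tested, and neither passed in either fit.

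Whether a difference was larger in lymph node than in the other tissues was tested as the lymph node difference minus the mean of the differences in spleen, lung and adipose tissue. Of 5007 genes 3 passed (0.0599%), and all 3 were lower in PLZF+ cells of lymph node relative to the other tissues. BE692007 differed by -3.68 ± 0.57 (adjusted p = 0.0115), with its lymph node difference of -4.64 beside -0.92 in spleen, -1.13 in lung and -0.85 in adipose tissue. In means of 3 libraries, PLZF- cells held 245 ± 189 normalized reads in lymph node and 99.0 ± 24.7 in spleen, and PLZF+ cells 8.24 ± 3.46 and 53.9 ± 20.5 (SD).

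Slamf6 differed by -2.51 ± 0.42 (adjusted p = 0.0167). Its PLZF difference was 0.26 ± 0.37 in spleen, where both subsets held much of it (258 ± 34.8 in PLZF- and 309 ± 38.7 in PLZF+), -1.04 in lung and -1.93 in adipose tissue, where it also passed on its own (adjusted p = 0.0389, in a tissue where 0.0799% of tested genes fell). P2rx7 differed by -3.47 ± 0.60 (adjusted p = 0.0167), and its sign differed between tissues, with -2.18 in lymph node against 0.93 in spleen, 1.5 in lung and 1.45 in adipose tissue. Its means in PLZF+ cells were 5.59 ± 4.24 normalized reads in lymph node and 130 ± 13.9 in spleen, and in PLZF- cells 25.4 ± 16.9 and 68.2 ± 7.30. With the block, and also by voom, Slamf6 was the 1 gene that passed (adjusted p = 0.0478 and 0.0498). Leaving out 1 library gave 0 genes without PLZF- library 3 or without PLZF+ library 2, 1 without PLZF- library 2 (BE692007) or PLZF+ library 3 (Slamf6), 2 without PLZF- library 1 and 4 without PLZF+ library 1. Without both libraries numbered 1, BE692007 and P2rx7 passed (adjusted p = 0.00195 and 0.00077) and Slamf6 did not (0.179).

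The other genes of the lymph node comparison were not shown to differ from the other tissues. Cd8b1 was lower in PLZF+ cells in spleen (-3.74), lung (-1.97) and adipose tissue (-2.67) too, Arl4c by -1.24, -1.29 and -1.41, and Ablim3 was higher by 5.16, 2.62 and 0.69, none past the test in those tissues, where 0.0999% (spleen), 0.0399% (lung) and 0.02% (adipose tissue) of tested genes rose and 0%, 0% and 0.0799% fell. Art2b had differences of 0.18, 0.22 and 0.17 outside the lymph node, and its contrast with the other tissues did not pass (-4.30 ± 0.93, adjusted p = 0.16). Of the 15 genes, 12 had the same sign in spleen, 13 in lung and 13 in adipose tissue. Over all tested genes the same-sign shares were 47.6%, 59.0% and 46.4%. Lung libraries 2 and 3 of both subsets were shallow, with 57095 to 117236 reads.

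**Figure D5:**
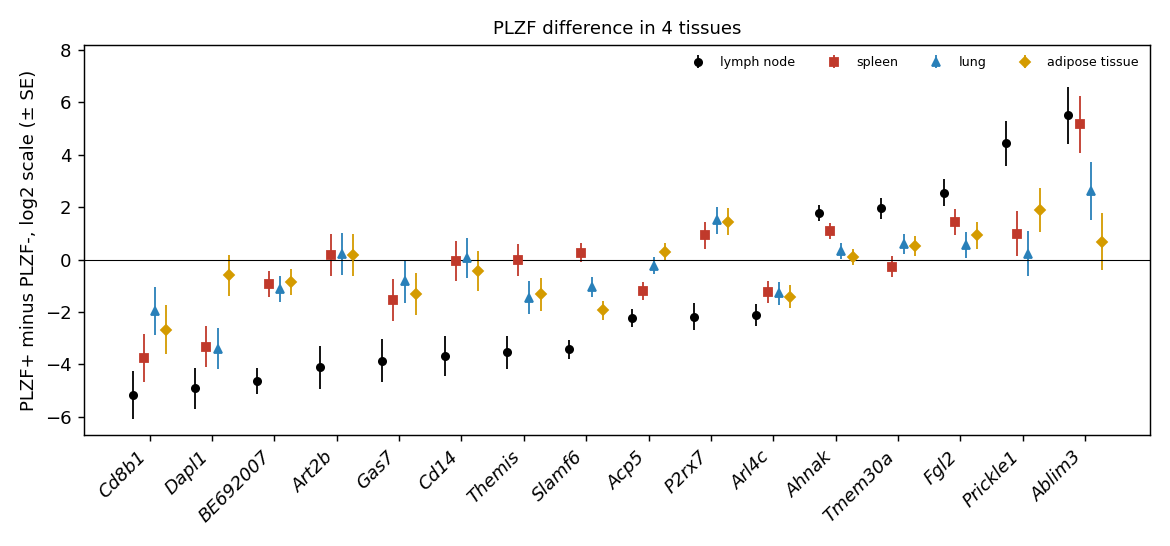
PLZF+ minus PLZF- on the deposited log2 scale in 4 tissues for the 15 genes past the test in lymph node and P2rx7, as fitted difference ± SE from 3 libraries per group. P2rx7 is below 0 in lymph node (-2.18) and above 0 in the other 3 tissues, and Slamf6 is near 0 in spleen (0.26).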

How the data were processed

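Per the submitters' processing notes, tools used on the 24 Smart-seq2 libraries (3 in each of 8 groups) included Cufflinks 1.2, HISAT 0.1.6 and SAMtools 1.2, with the mm10 build. Expression was deposited as log2 values scaled with TMM factors, per the file headers, beside the authors' p-value and q-value of a tissue test for every gene, and genes with a q-value under 0.05 were kept by the authors. A second file repeats rows of the table and was not used. A log2 value is the sum of log2(reads + 0.5), a term of its library and a term of its gene, and solving for the reads gave whole numbers for all 7926 genes within 0.02 reads. The 11 merged entries were left out.

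Group means of 8 groups were fitted to the log2 values with limma 3.58.1 (R 4.3.3) with a trend, over all 24 libraries, for 5007 genes that reached a value of 1 in 3 or more libraries, and Benjamini-Hochberg adjusted p under 0.05 was the threshold. Members, lists and tests were chosen with earlier results of these data known. The genes named are those past the test (up to 12 each way, read at a mean of 10 or more), the 3 with the lowest adjusted p in every list, and genes past the contrast with other tissues. Cd14, the genes called with the block only and further list members were named after their values were seen. Replicate numbers were taken to pair the subsets, although no label states it. Same-numbered libraries deviated together from their group means (correlation 0.357, 0.204 and 0.209 over tested genes, and highest for each library's own number). Over well-read tested genes these were 0.593, 0.344 and 0.365. Libraries 2 and 3 there also correlated across numbers (0.274 and 0.290), so their pairing is less clear than that of libraries 1. Replicate pairs of a group differed beyond sampling noise (chi-square per gene 4.12 or more). Alternatives were other filters, pseudocounts and scalings, voom on recovered reads, library weights, replicate blocks and libraries left out, and those chosen after seeing the data are 4: voom and the block on well-read genes, and both libraries numbered 1 left out, with and without that filter. Genes were placed by GENCODE M21 and promoters taken from RefSeq. Depth refers to the table's genes and limits those with few reads, and a fold against 0 reads uses a floor of 3 reads per library, which covers counting error only.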

Additional observations from a re-analysis of the deposited data

Results flagged for a closer look

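Lymph node differed from the other tissues in the PLZF difference of 3 genes, by the test of that difference itself. The lymph node difference minus the mean of the differences in spleen, lung and adipose tissue was -3.68 for BE692007, -2.51 for Slamf6 and -3.47 for P2rx7 on the deposited log2 scale. With the replicate block BE692007 and P2rx7 did not pass (adjusted p = 0.137 and 0.141), nor did they by voom (0.168 and 0.103), while Slamf6 passed in both. Slamf6 did not pass with median centring (0.0506) or without both libraries numbered 1 (0.179). With 1 lymph node library left out, it passed only without PLZF+ library 3. With quantile scaling 0 genes passed. On well-read genes, chosen after seeing the data, all 3 passed with the block (0.0174 to 0.0499) and by voom (0.0135 to 0.0197). The fitted P2rx7 difference was -2.18 in lymph node and 0.93, 1.5 and 1.45 in spleen, lung and adipose tissue. None of the 4 passed on its own in the fit without a block on all tested genes. In lymph node it passed among well-read genes (adjusted p = 0.0312) and without both libraries numbered 1 (0.00526). It did not pass there with the block (0.136) or by voom (0.224).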

How the results depend on the processing

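The lymph node count of 15 genes became 47 with the replicate block within tissue, 14 with a block on lymph node libraries only (8 shared), 0 with lymph node libraries only, 29 among well-read genes (14 shared), 4 with quantile scaling, 29 by voom (12 shared) and 154 with library weights. Alternatives chosen after seeing the data gave 46 (voom, well-read genes), 61 (block, well-read genes), 15 without both libraries numbered 1, and 29 with that filter as well. The count against other tissues (3) became 1 with the block, 0 with quantile scaling, 1 by voom and 37 with library weights, and 5 in each of the 3 added alternatives on well-read genes. Leaving out 1 lymph node library gave 2 to 22 genes and, against other tissues, 0 to 4. No filter and 2 other pseudocounts gave 15, 20 and 17, and median centring gave 21. The block within tissue changed no call of the 15 genes, the block on lymph node libraries only lost 7 of them, and for the contrast with other tissues BE692007 and P2rx7 lost theirs. Of 1446 values of the 70 named genes, 1251 kept their direction and side of the threshold. The sign reversed for Calca with library weights (-0.28 against 0.94), for Ccl3 (0.44) and Ccl4 (0.13) without PLZF- library 1, and for Ccl4 (0.04) without PLZF+ library 2, and the cause was not tested. With 1 library left out Ccl4 ranged from -2.84 to 0.13 and Ccl3 from -2.98 to 0.44. Depth limits genes with few reads and also shifts them. Relative depth was 1.96, 1.28 and 1.61 in PLZF+ lymph node libraries against 1.06, 1.22 and 1.42 in PLZF- ones. A gene with 0 reads in all of them thus has a difference below 0. The median log2 difference was -0.38 without a filter, -0.22 over tested genes and 0.02 among well-read ones.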

Other observations

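Some genes outside the gene lists were read at few counts and passed with the replicate block, among them Nfe2, a factor of erythroid and platelet cells, at 17.0, 4.93 and 5.64 normalized reads in PLZF- libraries against 3.57, 0 and 0. Thbs1, the secreted protein thrombospondin 1, was at 6.61, 1.64 and 1.41 against 0, 0 and 0, and Cd200r4, an activating receptor with close relatives, at 8.50, 14 and 5.64 against 5.10, 0 and 0. H2-Ob, a class II chaperone chain of B cells, was at 42.5, 55.8 and 108 against 26, 3.13 and 4.98. Its library 1 was the lowest of the PLZF- group and the highest of the PLZF+ group, whereas H2-Aa was highest in library 1 of both groups. Pacsin1, a membrane-bending protein, was at 44.4, 20.5 and 51.5 against 7.14, 7.83 and 11.2. By voom Nfe2, Thbs1, Cd200r4, H2-Ob and Pacsin1 did not pass (adjusted p 0.118 to 0.904).

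Higher with the block were Abhd12, a lysophosphatidylserine lipase, at 17.0, 27.1 and 16.9 normalized reads against 45.4, 62.6 and 62.9, and Sec14l1 at 37.8, 26.3 and 33.2 against 99.9, 78.3 and 77.2. Both had adjusted p under the threshold with the block only (0.0229 and 0.0179).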
